A study of Mus musculus with 36 samples.

Results

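Gpt2 knockout (KO) mouse brain was compared with wild type (WT) brain in mice that received vehicle. The comparison took the KO-Veh and WT-Veh libraries by the genotype and treatment in their labels, 10 of each, which makes 20 of the 36 libraries of the series. Tissue was harvested at postnatal day 19, with 10 mg of brain extracted for each library. The other libraries, 8 WT-aKG and 8 KO-aKG, came from mice given 600 mg per kg of dm-αKG, an ester of α-ketoglutarate, by intraperitoneal injection. They entered the fit so that all groups share one estimate of the spread, and their own genotype effect is given beside the vehicle effect where it helps to place a value. The labels do not give the brain region of each piece, the sex of the mice, the make-up of the vehicle, which part of Gpt2 was removed, in which cells, or whether each library came from a separate animal. If libraries of a group share an animal, the p-values measure only a technical spread.

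Gpt2 encodes the mitochondrial alanine transaminase, which passes an amino group between alanine and α-ketoglutarate and so links pyruvate, glutamate and the tricarboxylic acid cycle. Cells that run short of amino acids or have troubled mitochondria switch on the integrated stress response, in which the factor ATF4 raises amino acid transporters, tRNA synthetases and enzymes of serine and one-carbon metabolism. The brain at this age is still adding myelin and refining its circuits, and its regions differ greatly in their transcripts, so that the region a piece came from can shape its profile.

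Gpt2 lies on chromosome 8 at chr8:85492576-85527560 on the plus strand of GRCm38 (GENCODE M21). It had 22 to 39 CPM (counts scaled to library size with TMM factors; median 29.8) in the WT-Veh libraries and 0.881 to 3.3 CPM (median 1.79) in the KO-Veh libraries, and the groups did not overlap. Its log2 fold change was −3.96 (SE 0.17, edgeR adjusted p = 7.66e-19). The KO-Veh libraries still held 10 to 36 Gpt2 counts each, and reads from outside a deleted part would check nothing. Libraries of these groups held 9.94 to 12.8 M counts, and in each group 2 of 10 libraries had more Xist than Ddx3y counts, the pattern of female tissue.

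Cerebellar content varied widely between pieces and was therefore fitted as a covariate. The cerebellum score, the mean log2 CPM of 17 markers of granule and Purkinje cells, ran from 2.40 to 6.83 in WT-Veh (median 2.94) and from 1.14 to 6.91 in KO-Veh (median 2.02). It exceeded the mean over the 36 libraries by more than 1 in 3 WT-Veh libraries and in 1 KO-Veh library, replicate 7, which are called rich in cerebellum here. The difference between the group means was −1.34 (2-sided permutation p = 0.108), and −1.83 without KO-Veh replicate 7 (p = 0.0137). WT-Veh replicate 2 stood apart in other region markers: its midbrain and hindbrain score was 4.16, against 1.28 at most in the other WT-Veh libraries and 0.80 at most in KO-Veh. Some results that rest on this library are given with and without it. Of 223 named genes, 51 no longer passed the threshold given below without it, and not all of them are marked. Other libraries differed in region too. The hypothalamus score was 4.95 in KO-Veh replicate 9, against 3.07 at most in the other KO-Veh libraries. It was 4.04 in WT-Veh replicate 5, against 1.64 at most in the other WT-Veh libraries. Striatum scores ran from 1.29 to 4.85 in WT-Veh and from 1.52 to 5.58 in KO-Veh. Expression followed the cerebellum score in 9279 of 16255 genes tested (57.1%). Fewer cells of a type and less RNA per cell cannot be told apart in such bulk samples.

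With the covariate, 951 of 16255 genes (5.85%) passed an edgeR Benjamini-Hochberg adjusted p under 0.05. Of these, 537 were higher in the knockouts (3.3% of genes tested) and 414 lower (2.55%). Most changes were small: the median size among called genes was 0.44 on the log2 scale, or 1.36-fold. Beyond 1.5-fold there were 251 called genes, beyond 2-fold 68 and beyond 4-fold 15. A test for a change beyond 1.2-fold called 92 genes (0.566%), 70 higher and 22 lower. Changes beyond 1.2-fold were mostly rises, while among all called genes both directions were common. Without WT-Veh replicate 2 there were 720 calls, 428 higher and 292 lower. The split also depended on the scaling used. RLE size factors, another scaling, gave 538 higher and 411 lower, close to the counts with TMM. With plain library totals in place of TMM, 695 genes were higher and 60 lower, and the median of all genes moved from −0.02 to 0.08.

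**Figure D1:**
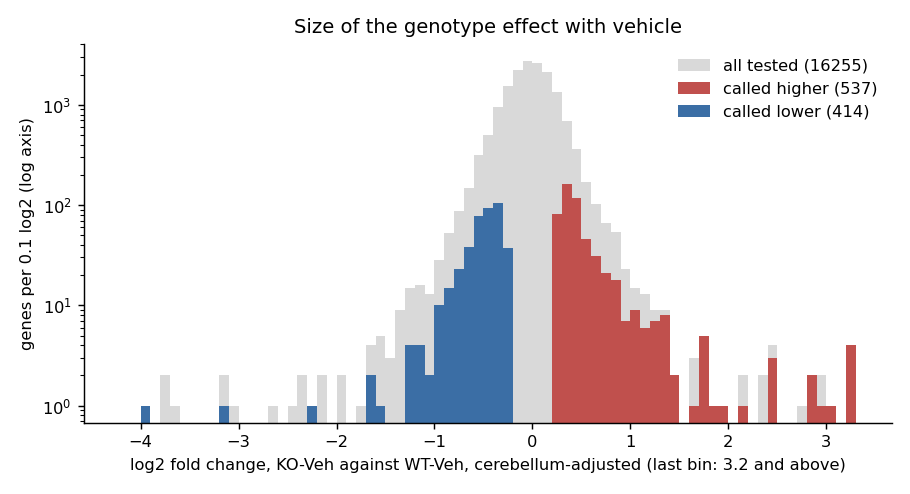
Number of genes (log axis, bins of 0.1) by log2 fold change of KO-Veh against WT-Veh, adjusted for cerebellum score; grey bars are all 16255 genes tested, red bars the 537 called higher and blue bars the 414 called lower. Called genes begin close to 0 and thin out quickly with size, with 12 rises and 3 falls beyond 4-fold; the last bin holds all larger rises.

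The covariate changed which genes passed. Without it 701 genes were called (4.31%), 422 higher (2.6%) and 279 lower (1.72%). Of the 951 genes, 546 were also called without it, 405 were called with it only, and 155 further genes were called without it only. Both fits gave each of the 701 genes called without the covariate the same sign. The median standard error over genes was 0.14 with the covariate and 0.16 without it. Among the genes gained, Sall1, a transcription factor of microglia and other cells, moved from −0.69 (adjusted p = 0.125) to −0.96 (SE 0.17, adjusted p = 0.000351). Wnt7b, a Wnt ligand, moved from −0.33 to −0.76 (SE 0.15, adjusted p = 0.00149), and Dnajc27 from −0.35 to −0.56 (SE 0.11). Pcgf1, a Polycomb subunit, moved from 0.40 to 0.59 (SE 0.10), and Lars1, the leucyl-tRNA synthetase, from 0.35 to 0.47 (SE 0.09). Among the genes lost, Fabp7, the fatty acid binding protein of radial and astroglial cells, went from −1.17 (adjusted p = 0.0197) to −0.87 (adjusted p = 0.0613), and Psd2 from −0.80 to −0.50. Snhg14, Kdm2a, Aifm1, Prss23 and Yeats4 were likewise past the threshold only without the covariate, with adjusted values from −0.46 for Snhg14 to 0.64 for Prss23.

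**Figure D2:**
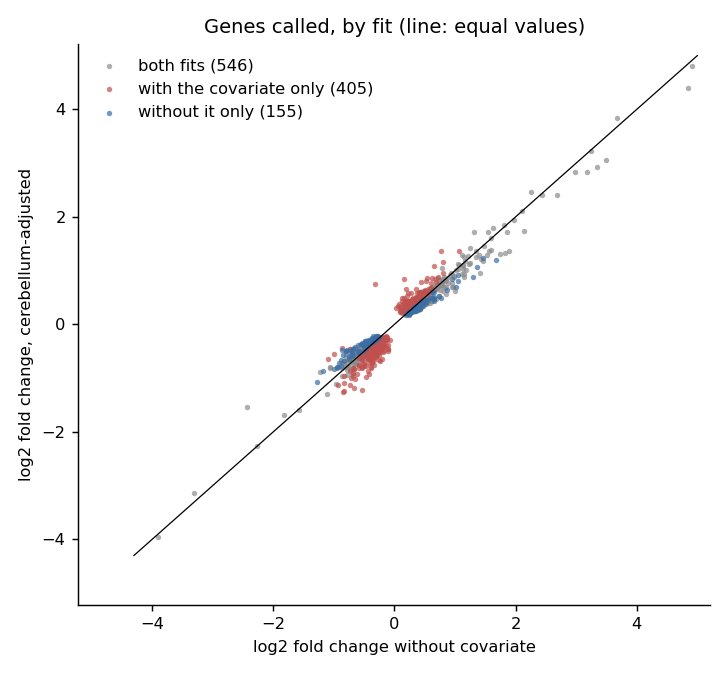
Log2 fold change of KO-Veh against WT-Veh without the covariate (x axis) and with the cerebellum score as covariate (y axis), 1 point per gene called in at least 1 fit, with the line of equal values. The 546 genes called in both fits are grey, the 405 called with the covariate only are red and the 155 called without it only are blue; the last class lies nearer to 0 on the y axis than on the x axis.

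Cox6a2, the muscle form of a cytochrome c oxidase subunit, showed the largest rise among called genes with at least 5 CPM, predicted genes left out. It had 0.668 to 15.1 CPM in WT-Veh (median 9.5) and 5.94 to 132 CPM in KO-Veh (median 76.4). The groups overlapped only through the knockout library that is rich in cerebellum, and did not overlap once the cerebellum slope was removed. The log2 fold change was 2.92 (SE 0.31, adjusted p = 7.9e-08).

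Chac1, which degrades glutathione, had 1.26 to 4.58 CPM in WT-Veh (median 2.21) and 5.44 to 29.1 CPM in KO-Veh (median 21.4), a log2 fold change of 2.83 (SE 0.28). Slc7a3, a carrier of cationic amino acids, had 2.03 to 11.5 CPM (median 6.34) and 13.3 to 49.6 CPM (median 42), a log2 fold change of 2.41 (SE 0.20). Ddit3, the stress-induced factor CHOP, had 9.22 to 17.3 CPM (median 12.9) and 22.1 to 70.8 CPM (median 47.1), a log2 fold change of 1.73 (SE 0.14). The groups did not overlap for any of these genes. They belong to the ATF4 list, of which 23 of 36 members rose and 1, Gpt2 itself, fell. That list was known from these samples to rise and is given only as the scale for the others.

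Mt3, a zinc-binding metallothionein of the brain, had 46.2 to 241 CPM in WT-Veh (median 76.8) and 305 to 741 CPM in KO-Veh (median 522). The groups did not overlap, and the log2 fold change was 2.41 (SE 0.27, adjusted p = 2.05e-07). Cyb5r1, a cytochrome b5 reductase, rose by 1.95 (SE 0.20), Mthfd2, a mitochondrial folate enzyme, by 1.85 (SE 0.22) and Psph, the last enzyme of serine synthesis, by 1.29 (SE 0.16), all on the log2 scale. The host genes of small nucleolar RNAs Snhg16 and Snhg5 rose by 1.41 (SE 0.25) and 1.26 (SE 0.18). Fkbp5, a co-chaperone of the glucocorticoid receptor, rose by 1.36 (SE 0.30). Cort, the peptide cortistatin of interneurons, rose by 1.36 (SE 0.41, adjusted p = 0.0417), Dleu7 by 1.34 (SE 0.26) and Fibin by 1.29 (SE 0.31). The groups overlapped for Mthfd2, Snhg16, Fkbp5, Cort, Dleu7 and Fibin, with or without the cerebellum slope removed. For Snhg5 they overlapped only before its removal. KO-Veh replicate 7 was low in Cort.

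Among called genes with at least 5 CPM, predicted genes left out, the largest fall apart from Gpt2 was that of Tnc, the matrix protein tenascin C of glial cells. It had 3.55 to 56.8 CPM in WT-Veh (median 6.61) and 1.12 to 7.45 CPM in KO-Veh (median 2.03), and the groups overlapped. Its log2 fold change was −1.54 (SE 0.29, adjusted p = 0.00105). Sall1 had 4.23 to 16.1 CPM (median 13) and 2.22 to 9.25 CPM (median 7.34), and here the groups parted once the cerebellum slope was removed. Fgfrl1, a decoy receptor for fibroblast growth factors, had 12.3 to 28.7 CPM (median 16.6) and 5.78 to 13.9 CPM (median 9.31), a log2 fold change of −0.96 (SE 0.15), again without overlap after removal of the slope.

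Further falls touched several kinds of cell. Aqp4, the water channel of astrocyte endfeet, fell by 0.88 (SE 0.24), and Slc25a18, a mitochondrial glutamate carrier of astrocytes, by 0.82 (SE 0.16) on the log2 scale. Rims1, a scaffold of the transmitter release site, fell by 0.91 (SE 0.26), and Hes5, a Notch effector, by 0.92 (SE 0.28, adjusted p = 0.0432). Apln, the peptide apelin, fell by 0.94 (SE 0.17), Ocel1 by 1.30 (SE 0.28) and Tshz2 by 1.09 (SE 0.29). Srebf2, the factor that drives sterol synthesis, fell by 0.91 (SE 0.16), and its targets Hmgcs1 and Stard4 by 0.84 (SE 0.18) and 0.81 (SE 0.14). Aqp4 and Hmgcs1 each had 1 WT-Veh library, replicate 2, well above the others. Without it Aqp4 had −0.49 (edgeR adjusted p = 0.128) and Hmgcs1 −0.64, still past the threshold.

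**Figure D3:**
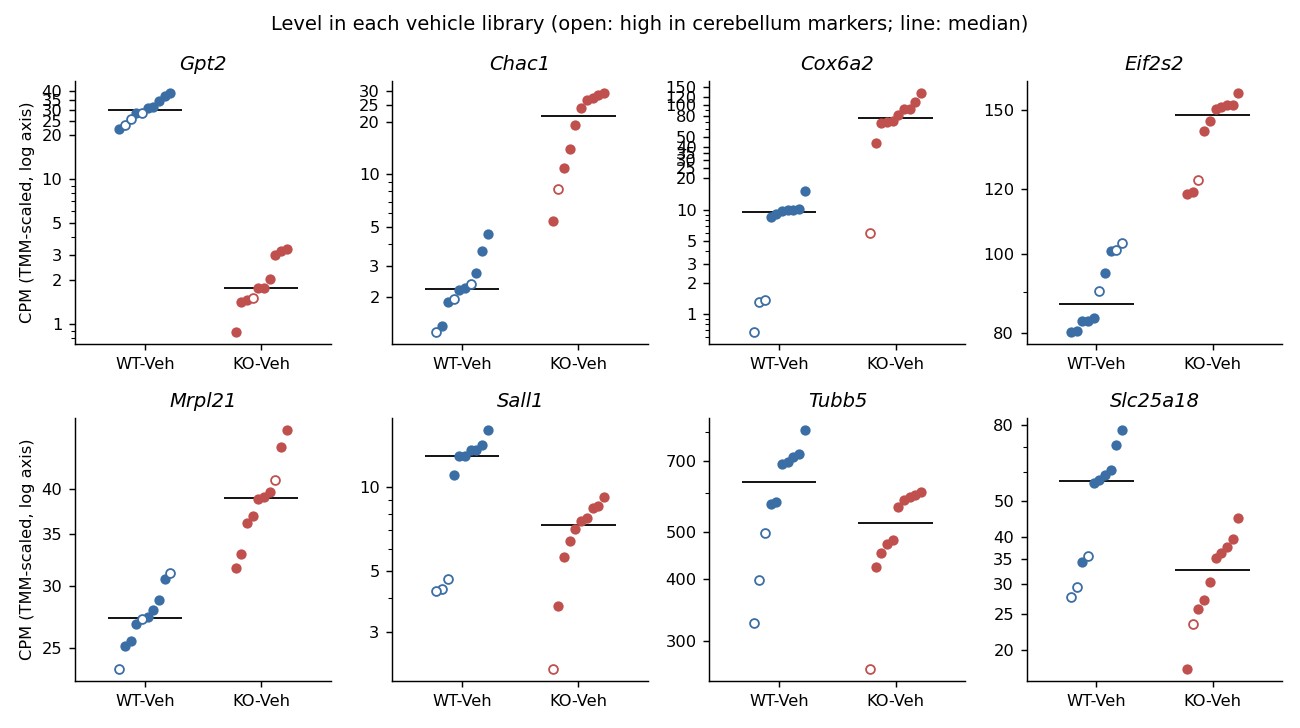
CPM (log axis) of 8 genes in each of the 10 WT-Veh (blue) and 10 KO-Veh (red) libraries; black lines are medians and open points are libraries high in cerebellum markers. Gpt2, Chac1, Eif2s2 and Mrpl21 separate the groups, while for Cox6a2, Sall1 and Tubb5 the open points lie low in both groups and the groups overlap.

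Across all genes, 69 had no overlap between the 10 KO-Veh and 10 WT-Veh libraries after the cerebellum slope was removed (0.424% of genes tested), 51 higher and 18 lower. On plain log2 CPM there were 45 (0.277%), 39 higher (0.24%) and 6 lower (0.0369%). Among the former, the following were singled out after their values were seen. Hax1, a mitochondrial protein that counters apoptosis, had 22.8 to 30.6 CPM in WT-Veh and 36.9 to 50.1 CPM in KO-Veh (log2 fold change 0.73, SE 0.08). Clta, a clathrin light chain, had 161 to 208 CPM and 214 to 270 CPM (0.39, SE 0.06). Ostn, a secreted peptide also known as musclin, had 0 to 0.668 CPM and 1.52 to 9.94 CPM, and Taf7l, a TFIID subunit better known from the testis, 0 to 0.114 CPM and 0.0886 to 4.6 CPM. The last 2 genes were below the 5 CPM used to rank rises. On plain log2 CPM the groups overlapped for Taf7l, so its separation rests on the slope removed from values near the floor.

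Position on the chromosome moved with the calls. Of 158 tested genes within 10 Mb of Gpt2, 23 were called (14.6%), against 846 of 14808 (5.71%) on other chromosomes. Beyond 1.2-fold there were 8 (5.06%), Gpt2 among them, against 0.486% on other chromosomes. Of the genes named so far, Sall1 lies 3.53 Mb and Mt3 8.64 Mb from Gpt2. Wdr83os, a protein of the endoplasmic reticulum, lies at −0.429 Mb from Gpt2, where a minus sign marks the side of the chromosome start, and had 9.13 to 18.9 CPM in WT-Veh and 24.9 to 35 CPM in KO-Veh (log2 fold change 1.04, SE 0.10, adjusted p = 2.34e-09). Gadd45gip1, a mitochondrial ribosome protein known also as a regulator of the cell cycle, lies at −0.677 Mb and had 24.3 to 30.7 CPM and 39.9 to 50.8 CPM (0.59, SE 0.07). Tnpo2, a nuclear import receptor at −0.463 Mb, fell by 0.50 (SE 0.10), and Scoc rose by 0.47 (SE 0.07). These neighbours were chosen after their values were seen, and the part of the alleles linked to Gpt2 in these results was not tested.

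Each count of called genes in the lists below stands beside 3.3% higher and 2.55% lower over all genes tested. Several lists held genes of translation. Among 20 cytosolic tRNA synthetases, which charge tRNAs, 11 rose and 0 fell, with a median log2 fold change of 0.46 against −0.02 for all genes. Cars1 had 7.98 to 14 CPM in WT-Veh (median 10.6) and 16.8 to 27.5 CPM in KO-Veh (median 23.1), and the groups did not overlap (log2 fold change 1.10, SE 0.11). Mars1, Sars1 and Nars1 rose by 0.83 (SE 0.09), 0.81 (SE 0.10) and 0.86 (SE 0.12), again without overlap. None of the 17 mitochondrial tRNA synthetases passed in edgeR or DESeq2 (median 0.01, 2 with an unadjusted p under 0.05), so the 2 sets of synthetases gave unlike counts; their difference was not tested.

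Of 58 genes with names of translation initiation factors 10 rose and 0 fell, with a median of 0.07. The 10 include Eif4ebp1, which its symbol placed in this family and which is not an initiation factor itself. Eif2s2, the β subunit of the factor that delivers the initiator tRNA, had 80.3 to 103 CPM in WT-Veh (median 86.9) and 119 to 157 CPM in KO-Veh (median 148). It rose by 0.66 (SE 0.09) without overlap. Eif1, which helps to select the start codon, rose by 0.42 (SE 0.07), and Eif2a by 0.37 (SE 0.08). Eif4ebp1, an inhibitor of cap-dependent initiation under the control of mTORC1, rose by 1.38 (SE 0.21) from a median of 4.4 to a median of 12.7 CPM. In the mTORC1 list 6 of 31 members rose and 0 fell, among them the sestrins Sesn2 (1.46, SE 0.23) and Sesn1 (0.43, SE 0.13) and the Ragulator subunit Lamtor3 (0.36, SE 0.08). That count was 3 without any one of WT-Veh replicates 2, 3, 4 and 7 and KO-Veh replicate 4. It was 2 with the index of transcript length given further on. Eif4ebp1 and Sesn2 are also called members of the ATF4 list.

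Proteins of the mitochondrial ribosome rose in 17 of 78 genes and fell in 0, and 72 of the 78 had a positive estimate (median 0.19). Mrps28 had 19.8 to 28.8 CPM in WT-Veh (median 22.8) and 25.2 to 38.7 CPM in KO-Veh (median 32.3), with a log2 fold change of 0.55 (SE 0.07). Mrpl21 had 23.5 to 31.2 CPM and 31.6 to 47.8 CPM without overlap (0.51, SE 0.08), and Mrpl19 10.5 to 13.6 CPM and 14.2 to 19.9 CPM, again without overlap (0.48, SE 0.08). Mrpl27 rose by 0.45 (SE 0.07). The count was 30 without KO-Veh replicate 9, 8 with the vehicle libraries alone, 10 without the cerebellum-rich libraries and 9 with no count filter.

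Among 42 genes with names of complex I subunits, the first enzyme of the respiratory chain, 15 rose and 0 fell (median 0.23). Ndufc2 had 206 to 312 CPM in WT-Veh (median 242) and 251 to 432 CPM in KO-Veh (median 290), and the groups overlapped (0.41, SE 0.08). Ndufa9, Ndufb3 and Ndufc1 rose by 0.36 (SE 0.08), 0.32 (SE 0.07) and 0.31 (SE 0.07). Of 30 subunits of complexes III and IV 1 rose, which was Cox6a2, and of 22 of the ATP synthase 0 passed, with 6 higher and 1 lower at an unadjusted p under 0.05 and 1 passing in DESeq2. Their medians were 0.19 and 0.18, and −0.13 and −0.07 with the index of transcript length given further on, which turns their direction. Without KO-Veh replicate 9 the counts were 5 and 7. For complex I the count was 5 without the covariate, 2 without the cerebellum-rich libraries, 7 without KO-Veh replicate 7 and 24 without KO-Veh replicate 9. The 15 called genes include Ndufa12-ps and Ndufs5-ps, copies that can share reads with Ndufa12 and Ndufs5. Some subunits have processed copies elsewhere in the genome, and how reads were shared between them is not given.

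Of 88 cytosolic ribosomal proteins 2 rose, Rpl36al (0.32, SE 0.09) and Rpl7 (0.26, SE 0.08), and 0 fell, a smaller share than the 3.3% over all genes. Their median was 0.17, with 83 positive estimates, and −0.12 with the length index, which turns the direction; 71 of the 88 lie in the shortest length class. With library totals 26 rose, and without KO-Veh replicate 9 there were 5. Of 50 proteasome genes 5 rose, among them the core subunits Psmb6 (0.32, SE 0.08) and Psmb2 (0.25, SE 0.07) and the ATPase Psmc4 (0.25, SE 0.07), and 1 fell. Without KO-Veh replicate 10 there were 2, without WT-Veh replicate 2 or 4 there were 3, and with the vehicle libraries alone 1. Of 18 subunits of the vacuolar ATPase, which acidifies lysosomes and synaptic vesicles, Atp6v1c1, Atp6v0e and Atp6v1g1 rose by 0.33 (SE 0.08), 0.34 (SE 0.08) and 0.26 (SE 0.08). In this family 1 gene was called without the cerebellum-rich libraries or with the length index, and 0 with the vehicle libraries alone. Of 32 RNA polymerase subunits 3 rose, Polr2j, Polr2g and Polr1d, by 0.31, 0.28 and 0.44. This small count was also 3 in DESeq2, and other settings are not given for this family.

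These values moved with transcript length, which was examined after the data were seen. Sorted by the longest annotated transcript, and cut into 4 classes of equal size, the shortest class of genes had a median log2 fold change of 0.09, the next 0.01, the third −0.04 and the longest −0.10. In the shortest class 241 genes rose and 38 fell, and in the longest 35 rose and 163 fell. Of the complex I genes with a length 33 of 40 lay in the shortest class, and so did 40 of the 78 mitochondrial ribosomal genes, but none of the cytosolic tRNA synthetases. An index of each library, the mean log2 level of the shortest minus the longest class with each gene centred, ran from −0.27 to 0.01 in WT-Veh (median −0.19) and from −0.25 to 0.27 in KO-Veh (median 0.04). The difference of the means was 0.20 (2-sided permutation p = 0.00171), and 0.18 to 0.24 when any one library was left out. Median index values were 0.06 in WT-aKG and 0.11 in KO-aKG.

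With that index as a further covariate 380 genes were called, 259 higher and 121 lower, and 249 of them were among the 951. Complex I then had 0 members called (median −0.00), the mitochondrial ribosome 4 and the initiation factors 5. The tRNA synthetases had 13 members that rose, and ATF4 targets had 22. Cholesterol synthesis went from 16 members that fell to 2. Mrpl21, Mrpl19 and Mrps28 stayed past the threshold at 0.48, 0.42 and 0.39, and Eif2s2 at 0.58. Mitochondrial ribosomal RNA made up 17.9 to 29.8% of counts in WT-Veh and 14.1 to 29.3% in KO-Veh. The index was built from the tested genes in these same libraries, with 33 of 40 complex I genes in its shortest class. It also differed between KO-Veh and WT-Veh. Fewer calls and lower medians in lists of short genes were therefore partly built into this fit. It cannot decide the part of transcript length in the gene groups, which was not tested.

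**Figure D4:**
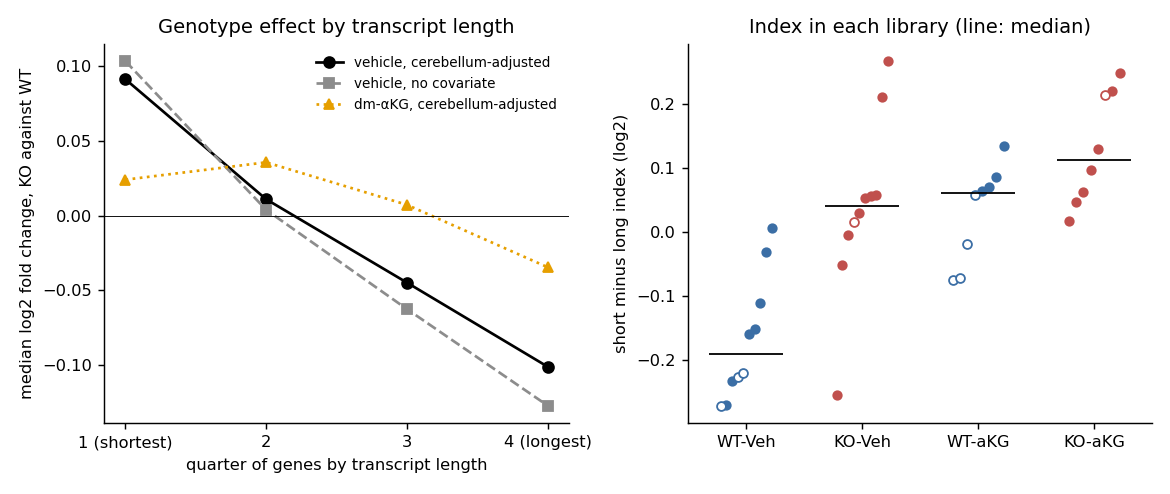
Left, median log2 fold change of KO against WT in 4 classes of genes by transcript length, for vehicle with (black) and without (grey) the covariate and for dm-αKG (orange); right, the short minus long index of each library with medians as lines and cerebellum-rich libraries as open points. The vehicle medians fall from 0.09 to −0.10, and 1 KO-Veh library, replicate 9, lies at −0.25 among the WT-Veh values.

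Promoters were searched for 3 motifs because several groups moved together, as a description that does not show binding. The windows run from 250 bases before to 50 after each gene start and come from RefSeq (GRCm38.p6). The letters TGATGNAA, the composite element of ATF4 and C/EBP factors, were sought on both strands. They occurred in 3.97% of all 32851 windows, in 2.72% of the tested genes with a window, in 25 of 405 risen genes (6.17%) and in 1.94% of fallen genes. Among the synthetases 5 of 13 held them, and among the mitochondrial ribosomal genes 0 of 69. The NRF1 element occurred in 10.51% of tested genes, in 14.07% of the risen and in 11.0% of the fallen. It occurred in 13 of 69 mitochondrial ribosomal genes (18.84%), 7 of 34 complex I genes (20.59%) and 3 of 13 synthetases (23.08%). Among ATF4 targets 2 of 31 held it (6.45%), and among cholesterol synthesis genes 2 of 17 (11.76%). The sterol element TCACNCCAC occurred in 1.38% of tested genes and 2.59% of the fallen. Among cholesterol synthesis genes with a window, 1 of 17 held it, which was Hmgcs1. One window is shown for each motif, each from a gene described here, with the match in capitals. Chac1 lies at chr2:119350992-119351291 (plus strand), Eif2s2 at chr2:154892857-154893156 (minus strand) and Hmgcs1 at chr13:119690101-119690400 (plus strand).
Chac1: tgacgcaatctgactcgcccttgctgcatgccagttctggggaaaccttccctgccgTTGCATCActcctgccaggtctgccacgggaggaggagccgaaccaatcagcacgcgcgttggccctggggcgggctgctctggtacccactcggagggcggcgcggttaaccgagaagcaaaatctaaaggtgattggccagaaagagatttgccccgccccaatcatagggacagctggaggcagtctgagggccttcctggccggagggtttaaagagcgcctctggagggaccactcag
Eif2s2: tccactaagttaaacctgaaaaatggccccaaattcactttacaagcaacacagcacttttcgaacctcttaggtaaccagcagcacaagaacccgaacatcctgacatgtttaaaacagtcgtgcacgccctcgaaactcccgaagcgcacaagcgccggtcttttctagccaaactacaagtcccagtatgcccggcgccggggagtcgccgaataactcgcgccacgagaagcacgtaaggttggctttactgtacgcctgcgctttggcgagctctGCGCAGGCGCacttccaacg
Hmgcs1: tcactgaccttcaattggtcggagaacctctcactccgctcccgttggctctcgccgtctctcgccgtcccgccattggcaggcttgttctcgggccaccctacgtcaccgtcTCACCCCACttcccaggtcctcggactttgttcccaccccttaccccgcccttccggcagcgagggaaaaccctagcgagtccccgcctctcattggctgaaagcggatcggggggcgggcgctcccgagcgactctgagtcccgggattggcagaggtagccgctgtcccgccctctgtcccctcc
The match in Chac1 is the reverse complement of the searched letters. These 3 genes also differ in how they moved: Chac1 and Eif2s2 rose, and Hmgcs1 fell.

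Lists of hormone response and cell damage were examined next. All 24 tested genes induced through the glucocorticoid receptor had positive estimates (median 0.58), and 11 rose while 0 fell. These estimates come from the same libraries and are not independent. The mean log2 CPM of the list ran from 3.62 to 4.37 in WT-Veh and from 3.98 to 5.37 in KO-Veh. KO-Veh replicates 1, 3 and 6 lay inside the WT-Veh range, so the rise was not seen in every knockout library. Beside Fkbp5, Plin4, a lipid droplet protein, had 0.154 to 1.04 CPM in WT-Veh and 0.264 to 13.8 CPM in KO-Veh (3.23, SE 0.59), and Map3k6 rose by 2.10 (SE 0.38); in both the groups overlapped. Without KO-Veh replicate 10 the count was 6, without KO-Veh replicate 5 it was 7, and with the length index 4. Of 25 p53 and apoptosis genes 6 rose and 2 fell (median 0.12). The lists share members: Gdf15 and Sesn2 are also called in the ATF4 list, and Cdkn1a in the glucocorticoid list. Sesn1 and Sesn2 are also called in the mTORC1 list. Cdkn1a, the p21 inhibitor of cell cycle kinases, had 21.4 to 56.2 CPM and 27.8 to 83.1 CPM (1.05, SE 0.18), and the pro-death genes Bbc3 and Pmaip1 rose by 0.76 (SE 0.17) and 0.88 (SE 0.20). Bdnf, a neurotrophin, rose by 0.67 (SE 0.17), and Jun, an immediate early factor, fell by 0.47 (SE 0.12).

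**Figure D5:**
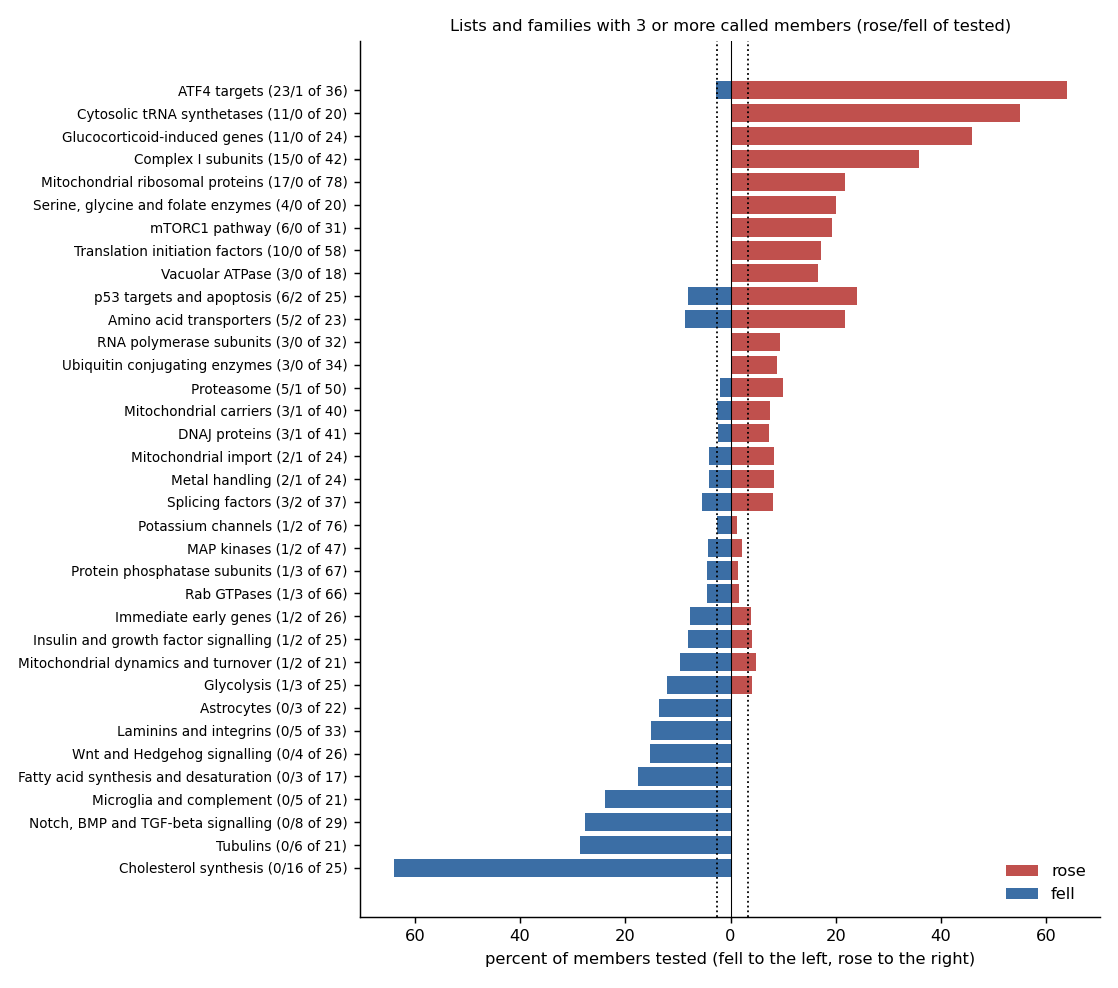
Percent of the tested members of each list or family that rose (red, to the right) or fell (blue, to the left), for those with at least 3 called members and without broad name families; dotted lines are the shares over all genes, 3.3% higher and 2.55% lower. ATF4 targets (23 of 36 rose) and cholesterol synthesis (16 of 25 fell) lie at the ends and were known from these samples; the tRNA synthetases and glucocorticoid-induced genes follow on the rising side.

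In the list of Notch, BMP and TGF-β signalling 8 of 29 genes fell and 0 rose (median −0.25). The receptor Notch2 had 10.5 to 17.6 CPM in WT-Veh (median 14.2) and 9 to 12.4 CPM in KO-Veh (median 10), and the groups overlapped (−0.41, SE 0.11). The ligands Tgfb2 and Jag1 fell by 0.52 (SE 0.14) and 0.60 (SE 0.17) and the receptor Bmpr2 by 0.24 (SE 0.07). Of 26 Wnt and Hedgehog genes 4 fell and 0 rose: the ligand Wnt7b, Ctnnb1, which carries the signal (−0.37, SE 0.11), the co-receptor Lrp6 (−0.27, SE 0.08) and the Hedgehog factor Gli3 (−0.60, SE 0.18). The Notch list had 0 calls with library totals, with no count filter or with the length index, 1 without any one of WT-Veh replicates 7 and 10 and KO-Veh replicate 7, and 3 without WT-Veh replicate 2. The Wnt list had 1 call with library totals, with no covariate or without WT-Veh replicate 7 or KO-Veh replicate 5.

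Of 21 tubulins 6 fell and 0 rose (median −0.23). Tubb5 had 327 to 810 CPM in WT-Veh (median 632) and 262 to 603 CPM in KO-Veh (median 522), and the groups overlapped (−0.48, SE 0.11). Tuba1b, Tubb2a and Tubb2b, isotypes of growing neurons, fell by 0.42 (SE 0.10), 0.57 (SE 0.13) and 0.48 (SE 0.13). The called tubulins include Tubb2a-ps2, a copy that can share reads with Tubb2a, and there were 3 calls without KO-Veh replicate 5. No tubulin was called without the covariate, with library totals or with the length index. Of 33 laminins and integrins 5 fell, among them the integrins Itga6 (−0.74, SE 0.15) and Itgb5 (−0.27, SE 0.08), with 2 calls without KO-Veh replicate 5 or 10 and 0 with the length index.

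Of 21 genes of microglia and complement 5 fell and 0 rose (median −0.22). Aif1, the calcium-binding protein IBA1, had 2.54 to 13.3 CPM in WT-Veh (median 8.21) and 1.95 to 12 CPM in KO-Veh (median 6.71), a wide overlap (−0.64, SE 0.18, adjusted p = 0.033). Itgam and P2ry12, an integrin and a purine receptor of microglia, fell by 0.65 (SE 0.19) and 0.57 (SE 0.17). The list had 0 calls without the covariate (median 0.01), 1 without the cerebellum-rich libraries, 1 without any one of WT-Veh replicates 4, 7 and 8 and KO-Veh replicates 5 and 10, and 3 with the length index, and its most strongly called member, Sall1, is near Gpt2. Of 22 astrocyte markers 3 fell, Aqp4, Gli3 and the amino acid carrier Slc7a10 (−0.77, SE 0.19). That count was 1 with the vehicle libraries alone, without the cerebellum-rich libraries, with library totals, with no count filter or with the length index. Sox2, a factor of radial and Bergmann glia, fell by 0.54 (SE 0.12), and Hapln4, which links the perineuronal matrix, by 0.80 (SE 0.20).

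Lists of energy metabolism outside the respiratory chain held 16% called members for glycolysis, 17.6% for fatty acid synthesis, 10% for mitochondrial carriers and 5.88% for the tricarboxylic acid cycle, against 5.85% over all genes. Of 25 glycolysis genes the enzymes Aldoa, Eno1 and Pkm fell by 0.40 (SE 0.10), 0.45 (SE 0.11) and 0.40 (SE 0.10), while Slc2a1, the glucose carrier of the blood-brain barrier and astrocytes, rose by 0.44 (SE 0.12). Of 34 genes of the tricarboxylic acid cycle and pyruvate entry Cs, the citrate synthase, and Sdha fell by 0.32 (SE 0.08) and 0.27 (SE 0.08). In fatty acid synthesis 3 of 17 genes fell, Fasn (−0.56, SE 0.09, without overlap after removal of the slope), Fads2 and Scd1 (−0.48, SE 0.14, and −0.61, SE 0.18). Without WT-Veh replicate 2 only Fasn of these 3 passed, and Pkm and Sdha did not (adjusted p = 0.0503 and 0.111). Among 40 mitochondrial carriers Slc25a18 fell and Slc25a34, Slc25a33 and Slc25a17 rose by 0.96, 0.49 and 0.29. Of 24 genes of mitochondrial import Timm10 and Timm23 rose by 0.48 and 0.30 and Tomm34 fell by 0.47. Ppargc1a, a regulator of mitochondrial growth, fell by 0.31 (SE 0.09).

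Some lists gave no call in edgeR. Of 35 dioxygenases that use α-ketoglutarate 0 passed (median −0.11), with 3 higher and 9 lower at an unadjusted p under 0.05; 3 fell in DESeq2 and 4 in edgeR without the covariate. No member passed in either tool among 20 heat shock genes (4 at an unadjusted p under 0.05), 18 genes of NAD metabolism (1) and 27 genes of FGF and ERK signalling (1 higher and 7 lower). The 13 genes of the mitochondrial genome had a median of −0.09 with 0 calls in either tool and 0 at an unadjusted p under 0.05. An adjusted p above the threshold does not show that these genes were alike in both groups.

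Marker lists of other regions and of myelin depended on WT-Veh replicate 2. All 14 midbrain and hindbrain markers had negative estimates (median −1.24) with 0 calls in edgeR, 4 at an unadjusted p under 0.05 and 2 falls in DESeq2. The median came to 0.22 without WT-Veh replicate 2, to −0.22 with 5 region scores as covariates and to 0.11 with the length index. Their score, a mean log2 CPM, ran from −0.73 to 4.16 in WT-Veh and from −0.51 to 0.80 in KO-Veh. All 25 genes of oligodendrocytes and myelin had negative estimates as well, with 0 calls in either tool and 2 at an unadjusted p under 0.05. Their median was −0.40, 0.16 without WT-Veh replicate 2 and 0.03 with 5 region scores. Of 14 thalamus markers 1 rose, Ramp3, which was singled out after its value was seen, and their median went from −0.41 to 0.10 without the same library. The choroid plexus list had a median of −0.79, and −0.69 without it, with 0 calls in edgeR, 5 at an unadjusted p under 0.05 and 1 in DESeq2. With the 5 scores 1693 genes were called, 816 higher and 877 lower. The part of these regions in single gene groups was not tested.

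Under dm-αKG the same fit called 608 genes between genotypes (3.74%), 296 higher (1.82%) and 312 lower (1.92%). Cox6a2, Chac1 and Cars1 had log2 fold changes of 3.29, 2.68 and 1.32 there, close in size to their vehicle values, while Snhg16 had 0.74 (adjusted p = 0.12) and Sall1 −0.34 (adjusted p = 0.312). No gene passed edgeR's test of the difference between the genotype effects, and 1152 had an unadjusted p under 0.05.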

How the data were processed

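Gene counts of 36 mouse brain libraries were analysed, and the groups came from the labels. Per the labels' protocols, RNA was captured with an oligo-dT primer carrying a sample barcode and a molecular identifier, and cDNA was tagmented. The submitters' processing notes name the aligner HISAT2 2.2.1, the counter featureCounts 2.0.6, Trim Galore 0.6.10, deepTools, SAMtools 1.6 and FastQC 0.12.1, and the builds mm10 and mm39. Which build gave the counts, the strand setting and whether identifiers were collapsed are not stated there. The authors deposited estimated counts per gene, rounded to whole numbers and not normalized, and a table of CPM for 21637 genes. The deposited CPM times 1 constant per library gave values whole to within 0.02 for 85.58 to 88.66% of the genes, which is why the counts are treated as rounded estimates; the CPM table served only this check.

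The count table held 56184 genes, 19498 of them without counts; filterByExpr kept 16255. The edgeR 4.0.16 quasi-likelihood test (R 4.3.3, TMM, robust) was fitted to all libraries in 4 groups with the centred cerebellum score (prior count 2) as covariate and no replicate block, and p-values were adjusted over all genes by Benjamini-Hochberg. CPM in the text were computed from the counts with TMM. A change beyond 1.2-fold was tested with glmTreat, and single scores with 100000 resamples. Counts of 16255 genes were simulated once from the fitted model, with 100 genes changed 1.5-fold and 100 changed 2-fold. The fit recovered 60% and 79% of these, and 4.79% of calls were false. The simulation added no difference in other regions or in transcript length, so its false share need not hold for the real counts. DESeq2 1.42.0 and other settings were alternatives. Replicate numbers did not pair libraries.

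The comparison, its lists and its tests were chosen with earlier results of these data known. Named genes were Gpt2, Ddit3, Chac1 and Slc7a3; the 15 largest rises and falls among called genes of at least 5 CPM; the 10 of smallest p gained and the 10 lost through the covariate; and up to 4 called members of each list with at least 3 called, or up to 3 of another list. Predicted and RIKEN genes were left out. Genes outside the rule are marked in the text.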

Additional observations from a re-analysis of the deposited data

Results flagged for a closer look

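In 23 of 282 groups of 10 libraries, 1 library stood further from its nearest neighbour than Dixon's limit allows, as a share of the group's whole range; chance gives about 1 in 20. The values are of log2 CPM with the cerebellum slope removed, a scale chosen after 18 groups had been found on plain log2 CPM.

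WT-Veh replicate 2 accounted for 8 of them. The shares were 0.699 for C1ql1, 0.669 for Hmgcs1, 0.625 for Aqp4, 0.584 for Hapln4, 0.552 for Mvd, 0.48 for Tnpo2, 0.469 for Mthfd2 and 0.468 for Itga6. Without this library 10 of the 25 cholesterol synthesis genes fell, against 16 with it.

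KO-Veh replicate 9 accounted for 5, each with the library below the other knockouts: 0.601 for Ube2a, 0.529 for Ndufa9, 0.512 for Rpl36al, 0.484 for Mrps28 and 0.479 for Ndufb3. It also had the lowest short minus long transcript index of its group, −0.25, and the highest hypothalamus score, 4.95. Without this library 1308 genes were called. Its part in the results was not tested.

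KO-Veh replicate 7, the knockout library rich in cerebellum, stood apart in the cerebellum score (0.582) and in Cort (0.467). WT-Veh replicate 1 stood apart in Lars1 (0.506), Btbd7 (0.496) and Jun (0.484). Among the knockouts Jun stood apart in replicate 10 (0.582), Cntnap1 in replicate 8 (0.527) and Clta in replicate 3 (0.555). Mt3 stood apart in WT-Veh replicate 3 (0.527) and Cyb5r1 in WT-Veh replicate 5 (0.48).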

How the results depend on the processing

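The count of 951 called genes came to 1693 with 5 region scores as covariates, 488 with the vehicle libraries alone, 523 without the libraries high in cerebellum markers, 496 with no filter on low counts and 380 with the short minus long transcript index, which was added after the data were seen. It was 701 with no covariate, 755 with library totals (695 higher, 60 lower) and 1220 with DESeq2. With one library left out it ran from 609 (without KO-Veh replicate 10) to 1308 (without KO-Veh replicate 9). The count beyond 1.2-fold, 92, was 144 with 5 region scores and 52 with the vehicle libraries alone, and 69 to 102 with one library left out. The 69 genes without overlap became 45 with no slope removed. The difference in cerebellum score ran from −1.83 (without KO-Veh replicate 7) to −1.02, and Gpt2 from −4.04 to −3.87. No named gene past the threshold changed sign under the settings that gave it a value, which was so for 219 of 223 genes with the vehicle libraries alone and with DESeq2 and 222 or 223 otherwise; 131 no longer passed with the transcript index, and 78 without a covariate. The causes of these changes were not tested. The fits with the vehicle libraries alone and without the libraries high in cerebellum markers also held fewer libraries. Same-numbered libraries of the 2 groups correlated at −0.21 to 0.18, 1 WT-Veh library correlated best with its own number, and a replicate block gave 875 calls. With these depths and this spread, simulated 1.5-fold changes were recovered in 60% of the 100 genes so changed.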
